A study of Mus musculus with 27 samples.

Results

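RNA of NIH/3T3 cells harvested 36 h after a forskolin pulse was set against RNA of parallel flasks of the same experiment harvested at 12 h, so that both harvests fell at the same nominal circadian phase, 24 h apart. The comparison held 6 of the 27 arrays of a time course, namely the 3 arrays labelled 36 h and the 3 labelled 12 h, chosen by label alone and paired by experiment number. NIH/3T3 is an established line of mouse embryo fibroblasts that grows as an attached layer and enters a resting state without serum. Forskolin activates adenylyl cyclase, raises cyclic AMP and resets the circadian clock of cultured cells. All cultures, at both times, were grown with serum that was lowered in steps, received 15 µM forskolin for 2 h in serum-free DMEM, and then stayed in serum-free medium. Flasks were harvested every 6 h from 0 h, at the end of the pulse, to 48 h, in 3 experiments, described in the labels as biological replicates, and cultures that received no forskolin were not analysed here.

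Both groups had the pulse and no serum afterwards, so time without serum and time after the pulse cannot be told apart. The model is 1 cell line measured as whole flasks, so for each transcript fewer cells that express it and less RNA per cell cannot be told apart. The 12 h arrays of experiments 1 and 3 carry another source name and description in the labels than the other 25 arrays. Each of these 2 arrays had its highest correlation, 0.962 and 0.968 across probe sets, with an array of its own experiment, and counts without them are given beside the results. The arrays had been scaled to trimmed means of 500.28 to 500.35 before deposit, and no 2 held identical values. Of 15 fibroblast markers on the array 14 were measured, with a summed intensity of 137544 to 151591 at 12 h and 137422 to 159351 at 36 h. Markers of other cell types were measured in part, namely 9 of 22 for muscle, 4 of 10 for adipocytes, 5 of 15 for leukocytes, 2 of 10 for endothelium, 2 of 12 for epithelium and 7 of 14 for neurons and glia. Ptprc, Pecam1, Epcam and Adipoq lay below the filter on dim probe sets, whereas Cd14, Cd52, Cd68, Laptm5 and Csf1r of the leukocyte list, Eng and Kdr of the endothelial list, Cdh1 and Cldn3 of the epithelial list and Lep, Lipe, Lpl and Cebpa of the adipocyte list lay above it. The summed intensity of a list is set only against itself at the other time. It was 1668 to 2203 at 12 h and 2077 to 2272 at 36 h for muscle, 1912 to 2262 and 1744 to 2746 for adipocytes, and 2180 to 2440 and 1931 to 2351 for leukocytes. It was 1318 to 1559 at 12 h and 1068 to 1240 at 36 h for endothelium, 1033 to 1116 and 834 to 987 for epithelium, and 2985 to 4008 and 3325 to 3687 for neurons and glia. The endothelial and epithelial sums, of 2 genes each, thus lay lower on all 36 h arrays. On the log2 scale, however, 1 endothelial gene had a positive and 1 a negative change, while both epithelial genes had a negative one. In experiment 2 the median change was positive for both lists, 0.66 for endothelium and 0.19 for epithelium. The part of other cell types in the results was not tested.

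Cells that lose serum factors complete the cycle they are in and stop before the next round of DNA replication. Genes for DNA synthesis are switched on by E2F factors late in G1, whereas genes for mitosis are switched on later, in G2, through promoter elements called CHR and CCAAT boxes, and both groups are repressed in resting cells. The circadian clock is a feedback loop in which CLOCK and BMAL1 (Arntl) drive the Per and Cry genes, whose products inhibit them, so its transcripts return to similar levels after a full cycle while those of a culture leaving the cell cycle need not.

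Levels are given as log2(intensity + 12.1) after quantile normalization, in the order of experiments 1, 2 and 3. Changes are 36 h minus 12 h on that scale, ± SE with n = 3 arrays per time point, from limma with the experiment as a block, and genes are said to have risen or fallen at an adjusted p below 0.05. Levels of different genes come from different probe sets and are not compared with each other.

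From 12 h to 36 h, 90 of 7453 probe sets (1.21%) rose and 138 (1.85%) fell, 228 in all (3.06%). Without the block, where differences between the cultures of separate experiments count as error, 1 rose (0.0134%) and 13 fell (0.174%), and all 14 were among the 228. At an unadjusted p below 0.05 there were 1341 probe sets with the block and 627 without it, where chance gives 372.7. All 228 moved one way in the 3 experiments, and for 165 the arrays of one time did not overlap those of the other. The calls were made on these same arrays, so both counts follow in part from the choice. Over all genes, counted by gene and not by probe set, 17.9% were positive and 17.9% negative in every experiment. The 36 h arrays all lay above the 12 h arrays in 5.53% of genes and all below in 6.34%. Taking the brightest probe set of each gene, 75 of 5643 genes rose (1.33%) and 118 fell (2.09%), and the median change over all genes was 0.00. Changes of more than 1 on the log2 scale were fewer among the rises, 11 probe sets, than among the falls, 32. Centring each array on its median in place of quantile normalization gave 50 rises and 175 falls, 77.8% of them falls in place of 60.5%. The counts depended on the experiments: without experiment 1 they were 157 higher and 254 lower, without experiment 2 they were 16 and 20, and without experiment 3 they were 1 and 3. Those 4 were probe sets of Dpt (2.21, adjusted p = 0.0422), Cdc20 (−1.49, adjusted p = 0.0164), Tmem176a (−1.74, adjusted p = 0.0191) and Ptprn (−1.01, adjusted p = 0.0164), the last named here only because it is 1 of the 4, so all other calls described here were lost without experiment 3. Without the 12 h arrays of experiments 1 and 3 the counts were 28 and 24, with a single 12 h array that was assumed to vary like the others.

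Genes of G2 and mitosis held the largest falls. Of 60 such genes listed, 41 were measured, 12 fell and 0 rose (background 2.09% of genes lower). The sign was negative for 37 of the 41, and for 33 it was negative in every experiment, against 17.9% of all genes. Their median change was −0.92, with medians of −0.81, −0.54 and −1.25 in experiments 1, 2 and 3, or −0.87 ± 0.36 (SD, n = 3). The lists were drawn up with earlier results of these data known, so the count is a description.

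Kif20a, a kinesin needed for cytokinesis, stood at 8.41, 9.58 and 9.10 at 12 h and at 6.07, 7.84 and 4.87 at 36 h. The 2 groups did not overlap, and experiment 2 was the highest at both times. The change was −2.77 ± 0.54 (adjusted p = 0.00587), and the 36 h mean lay below the level of 6.77 used to leave out dim probe sets, where the scale understates changes.

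Cdc20, the activator of the anaphase-promoting complex, was at 9.67, 11.54 and 10.82 at 12 h and at 8.23, 10.01 and 8.06 at 36 h. It fell in each experiment although the 36 h array of experiment 2 lay above the 12 h array of experiment 1. The change was −1.91 ± 0.32 (adjusted p = 0.00297).

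Ccnb2, which encodes the mitotic cyclin B2, was at 8.94, 10.58 and 10.05 at 12 h and at 8.04, 9.36 and 8.24 at 36 h. The groups overlapped in the same way, with the highest level in experiment 2 at both times, and each experiment fell. The change was −1.30 ± 0.24 (adjusted p = 0.0050). Cks2, a small protein that binds cyclin-dependent kinases, went from 8.80, 9.54 and 9.09 to 8.12, 8.47 and 6.90, so that all 36 h arrays lay below all 12 h arrays (−1.31 ± 0.25, adjusted p = 0.00582).

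The remaining 8 called members act in the spindle, the chromosomes and the division furrow. Anln, the furrow scaffold anillin, changed by −2.14 ± 0.56 and Ckap2, a spindle-associated protein, by −1.80 ± 0.36. Kif22, a kinesin that binds chromosome arms, changed by −1.29 ± 0.28, and Cdca8, the borealin subunit of the chromosomal passenger complex, by −1.24 ± 0.24. The centrosome kinase Nek2 fell by 1.07, the securin Pttg1 by 0.97, the tubulin-binding protein Stmn1 by 0.91 and the condensin subunit Smc4 by 0.76. Adjusted p-values of these 8 lay between 0.00694 and 0.036. Of the 41 genes, 29 did not pass. Among them, chosen after their values were seen, the proliferation marker Mki67 changed by −1.89 ± 0.61 (adjusted p = 0.0899) and the mitotic kinase Cdk1 by −0.74 ± 0.25 (adjusted p = 0.113).

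The number of G2 and mitosis genes that fell was 8 without experiment 1, 4 without experiment 2 and 1, Cdc20, without experiment 3. Without the block or without the 12 h arrays of experiments 1 and 3 it was 0. Experiment 3 gave the largest falls, and without it the changes were −1.33 for Anln, −0.88 for Cks2, −0.79 for Kif22 and −0.81 for Cdca8. The ratio of 3′ to 5′ signal of the actin control, a measure of RNA quality, was 1.61, 1.15 and 1.32 at 12 h and 1.44, 1.11 and 1.73 at 36 h, highest in experiment 3 at 36 h. Its part in the result was not tested.

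**Figure D1:**
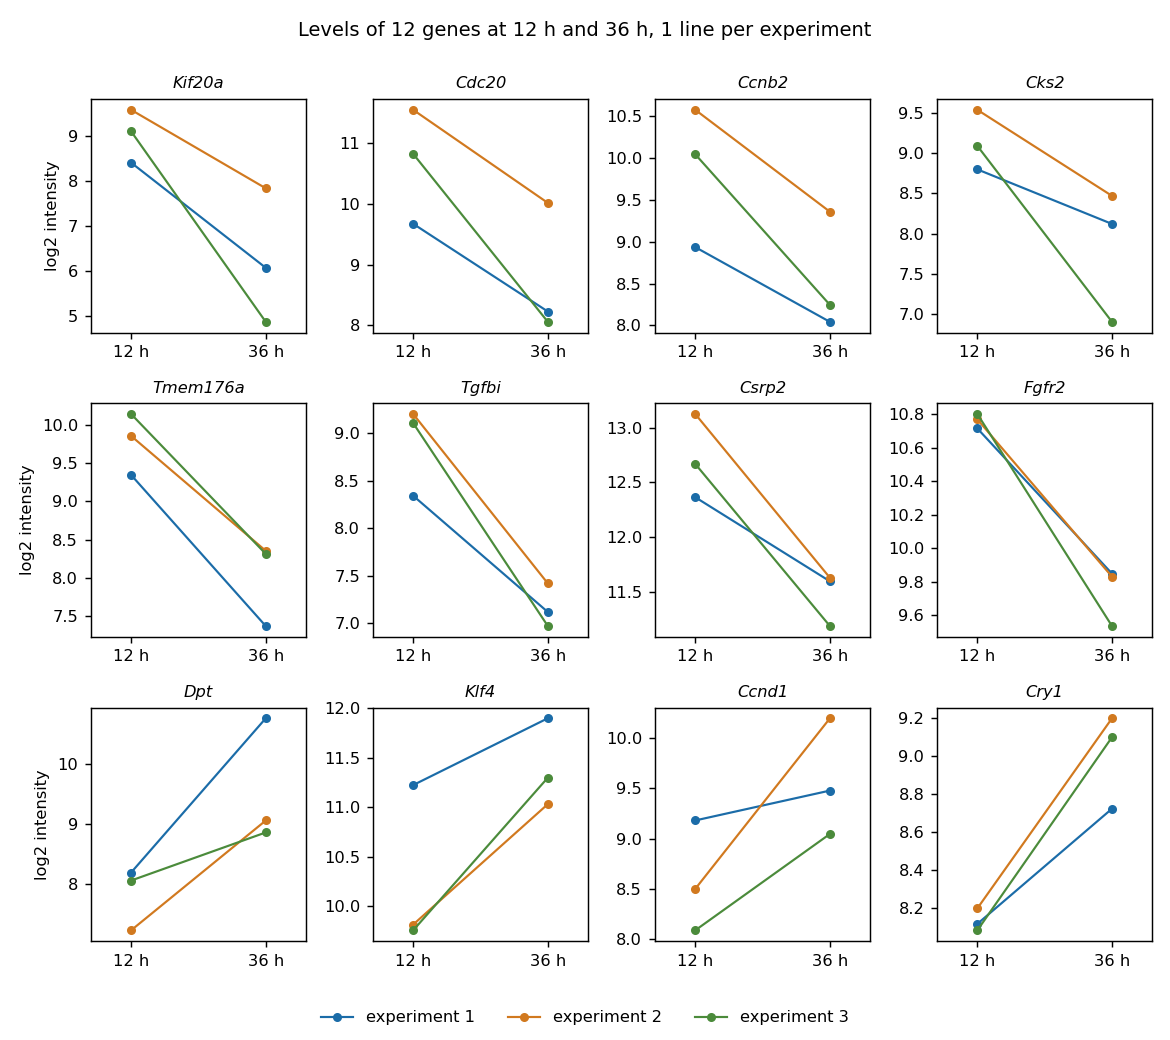
Log2 levels of 12 named genes at 12 h and 36 h, 1 panel per gene on its own scale, with a line for each of the 3 experiments. The lines of Kif20a and Cdc20 slope down in all 3 experiments, by −2.77 and −1.91 on average.

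Promoters of 4 of the called genes are shown as examples that hold both a CHR core and a CCAAT box. They are among the 5 of 9 searched promoters of called genes that held both. Of the others, Pttg1 held neither, Anln held no CCAAT box, and Cks2 and Nek2 held no CHR core. For contrast 1 promoter of a DNA replication gene, Mcm5, is shown, from the 12 of 45 with an E2F-type motif. Sequences are RefSeq promoters of build GRCm38.p6, read 5′ to 3′ on the strand of the gene, with the motif letters in capitals. Positions count from the gene's start. The first 4 run from −100 to 20 and lie at chr4:118437324-118437443 (Cdc20), chr9:70421535-70421654 (Ccnb2), chr7:127042401-127042520 (Kif22) and chr4:124936898-124937017 (Cdca8), all on the minus strand. The Mcm5 stretch runs from −170 to −51, at chr8:75109339-75109458 on the plus strand.
Cdc20: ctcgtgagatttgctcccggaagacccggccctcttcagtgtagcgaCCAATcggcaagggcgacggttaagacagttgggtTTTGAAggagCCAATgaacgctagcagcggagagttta
Ccnb2: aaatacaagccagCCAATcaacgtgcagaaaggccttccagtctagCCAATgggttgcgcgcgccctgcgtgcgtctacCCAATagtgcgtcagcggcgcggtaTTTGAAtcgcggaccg
Kif22: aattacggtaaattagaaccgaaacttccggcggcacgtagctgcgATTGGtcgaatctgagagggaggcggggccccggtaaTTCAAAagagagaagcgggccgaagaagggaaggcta
Cdca8: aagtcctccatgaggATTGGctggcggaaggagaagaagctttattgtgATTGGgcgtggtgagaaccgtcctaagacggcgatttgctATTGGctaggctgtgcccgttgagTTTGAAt
Mcm5: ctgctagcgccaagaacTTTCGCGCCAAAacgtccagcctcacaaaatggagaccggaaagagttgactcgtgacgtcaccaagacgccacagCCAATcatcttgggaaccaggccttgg

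In the first 4, capitals mark TTTGAA, the core of the CHR, and the CCAAT box, each also where it lies on the other strand. In Mcm5 they mark TTTCGCGC and, overlapping it on the other strand, TTTGGCGC, both of the E2F type, and CCAAT. The search covered both strands. It took TTTGAA and its variant TTCGAA for the CHR, and CCAAT for the box. The E2F-type motifs were TTTCCCGC, TTTGGCGC and TTTCGCGC. The window ran from 250 bases before to 50 after the start. Of the 12 called genes 9 had a promoter in the table, and Kif20a, Stmn1 and Smc4 did not. TTTGAA stood in 6 of these 9 promoters (66.7%) and in 17.9% of all 32851 promoters, and CCAAT in 7 (77.8%) against 37.4%. Either TTTGAA or TTCGAA together with CCAAT was found in 5 (55.6%) against 7.52%, and an E2F-type motif in 0 of 9 against 1.84%. Over all measured G2 and mitosis genes TTTGAA stood in 27 of 35 promoters (77.1%), and CCAAT also in 27 of 35. Over the measured DNA replication genes TTTGAA stood in 7 of 45 (15.6%), and an E2F-type motif in 12 of 45 (26.7%). CCAAT stood in 25 of these 45 (55.6%), also above its share of all promoters. These shares describe the letters in the window, and binding was not measured.

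Genes of S phase and DNA replication did not share the fall. Of 39 measured, 0 rose and 0 fell by limma (3.42% of all genes were called), 22 had a positive and 17 a negative sign, and the median change was 0.02. The median was −0.04, 0.18 and −0.11 in the 3 experiments, 0.01 ± 0.15 (SD, n = 3), and without experiment 2 the median was −0.08. Without the block the count was also 0, and without experiment 1 there was 1 call. Pcna, the sliding clamp of DNA polymerases, had the smallest p of the list. Its level was 8.76, 8.79 and 8.82 at 12 h and 9.26, 9.67 and 9.19 at 36 h. All 36 h arrays lay above all 12 h arrays, yet the change of 0.59 ± 0.17 did not pass (adjusted p = 0.0642).

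The time course places most of the fall of the G2 and mitosis genes between 12 h and 18 h. Relative to 12 h, their median stood at 0.31 at both 0 h and 6 h and had dropped to −0.93 by 18 h. It was −0.90 after 24 h, −0.93 after 30 h and −0.92 after 36 h, and then −0.72 after 42 h and −0.94 after 48 h. The largest step between neighbouring times lay between 12 h and 18 h, after a smaller one from 6 h to 12 h that every experiment showed. The S phase median was 0.52 above its 12 h value at 0 h and 0.37 above it at 6 h, and lay between −0.12 and 0.11 from 18 h on. Most of the descent of the S phase median thus lay before 12 h.

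**Figure D2:**
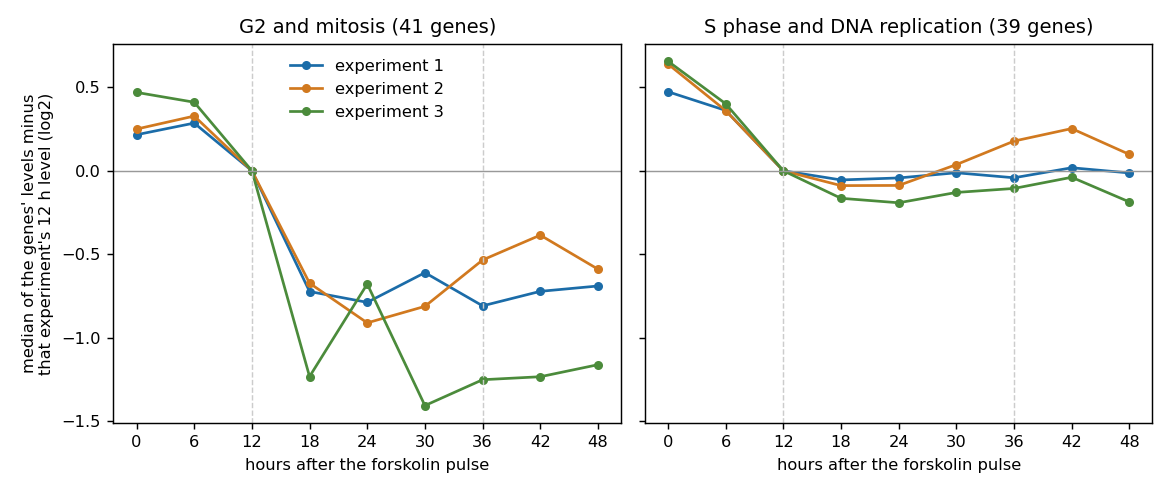
Median log2 level relative to 12 h over the 41 G2 and mitosis genes and the 39 S phase genes at each time (hours after the pulse), by experiment. The G2 and mitosis median drops most between 12 h and 18 h and stays below 0 in all 3 experiments, whereas the S phase median has dropped by 12 h.

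Other pairs of times 24 h apart, which share no array with 12 h and 36 h, place this comparison in the course. They use the 18 h and 30 h arrays of experiment 1, whose clock gene levels are described with the clock genes. From 6 h to 30 h, 178 genes rose (3.15%) and 265 fell (4.7%), and 32 of the 41 G2 and mitosis genes were among the falls, with a median of −1.34. From 18 h to 42 h, 1 gene rose and 1 fell (0.0177% each), Dpt and the quinone reductase Cryz (−0.71, adjusted p = 0.000638), and no G2 and mitosis gene was called (median 0.08). The S phase median was −0.52 from 6 h to 30 h, where 12 of 39 fell, and 0.18 from 18 h to 42 h, where 0 were called. In the limma contrast of the differences, 0 probe sets passed against 6 h to 30 h, where 547 had an unadjusted p below 0.05 and the smallest adjusted p was 0.0946. Against 18 h to 42 h, 0 passed as well, with 484 at an unadjusted p below 0.05 and a smallest adjusted p of 0.136. Without the block both counts were 0, with 174 and 149 probe sets at an unadjusted p below 0.05. By these 2 contrasts, no gene can be said to have changed differently from 12 h to 36 h than over these 2 other days. The difference from 24 h to 48 h was not tested. Leaving out 1 experiment gave a single call each time it gave any: Zfp94 (2.48, adjusted p = 0.000235) against 18 h to 42 h without experiment 1, and Dcaf12 (−2.12, adjusted p = 0.00524) against 6 h to 30 h without experiment 2. At the unadjusted threshold, 29 of the 41 G2 and mitosis genes were below 0.05 against 18 h to 42 h, all with a negative difference, against 395 of all 5643 genes. Of the 39 S phase genes, 12 were below 0.05 against 6 h to 30 h, all with a positive difference, against 417 of all 5643 genes.

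**Figure D3:**
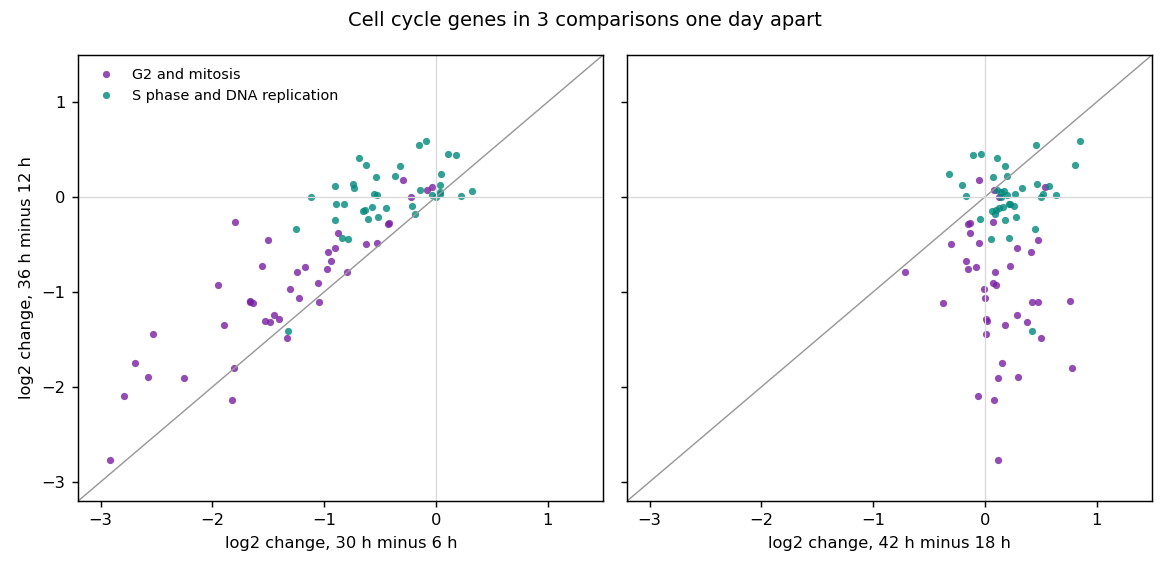
Change from 12 h to 36 h (log2, vertical axis) beside the change from 6 h to 30 h (left) and from 18 h to 42 h (right) (log2, horizontal axes), 1 point per measured G2 and mitosis or S phase gene, with a line where both changes are equal. Most G2 and mitosis genes lie at negative values on both axes on the left and near 0 on the horizontal axis on the right, where their median is 0.08.

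Several large falls were of genes outside the cell cycle lists, and for most of them values over other pairs of times 24 h apart are given. Whether they follow the cell cycle was not tested. From 24 h to 48 h, 10 of all genes rose (0.177%) and 25 fell (0.443%). Tgfbi, a secreted matrix protein induced by TGF-beta, was at 8.34, 9.20 and 9.11 at 12 h and at 7.12, 7.42 and 6.97 at 36 h. All 36 h arrays lay below all 12 h arrays (−1.72 ± 0.29, adjusted p = 0.00318). Its change was −1.90 from 6 h to 30 h (adjusted p = 0.000394), while −1.02 from 18 h to 42 h and −0.84 from 24 h to 48 h did not pass (adjusted p = 0.189 and 0.226).

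Csrp2, a LIM domain protein of the actin cytoskeleton, went from 12.36, 13.12 and 12.67 to 11.60, 11.63 and 11.19. The groups did not overlap, and the change was −1.25 ± 0.18 (adjusted p = 0.000913). Csrp2 had −1.29 from 6 h to 30 h (adjusted p = 0.000147). It had −0.71 from 18 h to 42 h (adjusted p = 0.172) and fell by 0.90 from 24 h to 48 h (adjusted p = 0.0213). Tmem176a, a membrane protein, went from 9.35, 9.85 and 10.14 to 7.37, 8.35 and 8.31, again without overlap (−1.77 ± 0.19, adjusted p = 2.74e-05). Tmem176a had −1.27 from 6 h to 30 h (adjusted p = 0.000268). It had −0.71 from 18 h to 42 h (adjusted p = 0.188) and fell by 1.31 from 24 h to 48 h (adjusted p = 0.00206). Nmt2, an enzyme that attaches myristate to proteins, fell by 1.60 (SE 0.35, adjusted p = 0.0121), with a 36 h mean of 6.10, below the filter level, and a 48 h mean of 6.85. Its changes over the other days, of which −1.15 from 18 h to 42 h was the largest, did not pass. Cdc20, Ccnb2 and Kif22 had 0.12, 0.02 and 0.01 from 18 h to 42 h and −0.42, −0.11 and 0.17 from 24 h to 48 h, and none of these passed.

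Other large falls were Mmp9, a secreted gelatinase, at 9.79, 10.14 and 9.99 at 12 h and 8.27, 9.41 and 8.40 at 36 h, which did not overlap (−1.28 ± 0.22, adjusted p = 0.00324). Its mean was 9.97 at 12 h and 8.82 at 18 h. Mmp9 had −1.51 from 6 h to 30 h (adjusted p = 0.000246). Its changes of −0.16 from 18 h to 42 h and −0.47 from 24 h to 48 h did not pass. Fgfr2, a receptor of fibroblast growth factors, was at 10.71, 10.77 and 10.80 and then at 9.85, 9.83 and 9.54. Its 3 arrays at each time lay close together (−1.02 ± 0.16, adjusted p = 0.00202), and a dimmer probe set had −0.69 and did not pass. Pimreg fell by 1.26, and so did D17H6S56E-5. Without experiment 3 their changes were −0.88 and −0.76. The means of these 2 genes went from 8.64 and 8.30 at 12 h to 7.58 and 6.88 at 18 h. From 18 h to 42 h they had 0.05 and 0.16, which did not pass, much like the G2 and mitosis genes. From 6 h to 30 h D17H6S56E-5 fell by 2.1 (adjusted p = 0.000407), whereas Pimreg had −0.63 and did not pass (adjusted p = 0.311).

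The largest rise was that of Dpt, which encodes dermatopontin, a small matrix protein of connective tissue. It was at 8.19, 7.22 and 8.05 at 12 h and at 10.77, 9.06 and 8.86 at 36 h. The groups did not overlap, and experiment 1 rose the most. The change was 1.74 ± 0.30 (adjusted p = 0.0031), beside 1.65 from 6 h to 30 h and 1.78 from 18 h to 42 h (adjusted p = 0.0167).

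Klf4, a zinc finger factor linked to growth arrest, was at 11.22, 9.82 and 9.76 at 12 h and at 11.90, 11.03 and 11.30 at 36 h. It rose in each experiment, but the 12 h array of experiment 1 lay above the 36 h array of experiment 2 (1.14 ± 0.23, adjusted p = 0.00733). Ccnd1, the cyclin D1 of the G1 phase, went from 9.18, 8.50 and 8.09 to 9.48, 10.20 and 9.05. Experiment 2 gave most of this rise, and the change of 0.98 ± 0.21 (adjusted p = 0.0123) was 0.63 without it. A 2nd probe set of Ccnd1 gave 1.01 ± 0.24 (adjusted p = 0.0217).

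Other rises were those of Spsb1, an adaptor of ubiquitin ligases (1.00), Cdh11, a cadherin of mesenchymal cells (0.91), Naa40, an acetyltransferase of histone N-termini (0.83), and Abcb10, a mitochondrial transporter (0.82). Olfm1 and Ifitm10 each rose by 1.16. The transcription factor subunit Taf6 rose by 1.34 and Enkd1 by 1.05, and both had 12 h means below the filter level. Abt1 (1.14), Akirin1 (1.13) and Camsap1 (1.02) rose too, and the clock gene Cry1, described with the clock genes, completed the 15 largest. The 12 h array of experiment 2 was low for Abt1 and Camsap1, whose changes without experiment 2 were 0.52 and 0.57, and Enkd1 had 0.56 without experiment 3. A dimmer probe set of Akirin1 changed by 0.26 and did not pass. Of the rises in this paragraph, Spsb1 and Olfm1 had their lowest mean at 0 h, and all others at 12 h. Taf6, for example, had means of 7.21 at 6 h, 5.94 at 12 h and 6.98 at 18 h. From 6 h to 30 h only Spsb1 passed (0.76, adjusted p = 0.0162), and from 18 h to 42 h none did. Over these days Taf6 had 0.11 and 0.21, Abt1 −0.12 and −0.13, and Akirin1 0.29 and 0.87.

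Of the 75 genes that rose, 72 also had a positive change from 6 h to 30 h and 69 from 18 h to 42 h, where 2915 and 2762 of all 5643 genes did. Of the 118 that fell, 114 and 97 had a negative change, as had 2718 and 2873 of all genes. By 18 h the median of the rises had moved by 0.34 and that of the falls by −0.36, and at 48 h they stood at 0.67 and −0.70, beside 0.61 and −0.72 at 36 h. The genes were chosen on the 12 h and 36 h arrays, so their distance from 12 h is partly fixed by the choice.

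Among 25 measured G1 cyclins, CDK inhibitors and arrest genes, 1 rose (Ccnd1) and 3 fell, where 1.33% of all genes rose and 2.09% fell, and the median was −0.09. The same shares are the background of the counts in every list that follows. The falls were Gadd45b, a stress-induced growth arrest gene (−0.99 ± 0.27, adjusted p = 0.0499), Gas2, a cytoskeletal protein of resting cells (−0.52 ± 0.13), and Cdkn2c, the CDK4 and CDK6 inhibitor p18 (−0.46 ± 0.10). Cdkn2c was at 10.89, 11.15 and 10.97 at 12 h and at 10.41, 10.77 and 10.45 at 36 h. All 36 h arrays lay below all 12 h arrays. Another probe set of Gadd45b had −0.15 and did not pass. The probe set that fell had a mean of 10.84 at 0 h, at the end of the pulse, and of 9.11 at 12 h.

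Of 13 measured core clock genes 1 rose, and the median was −0.08. Cry1, a repressor of the loop, was at 8.11, 8.20 and 8.08 at 12 h and at 8.72, 9.20 and 9.10 at 36 h. The groups did not overlap, and the change was 0.88 ± 0.22 (adjusted p = 0.0284). Its 18 h mean was already 9.27, and from 18 h to 42 h it had −0.13.

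The other clock genes did not pass, with SEs that leave changes of some size undetected. The 18 h and 30 h arrays of experiment 1, which enter these SEs, ran against experiments 2 and 3 for some clock genes. Per3 was at 8.89, 10.22 and 9.82 at 18 h and at 10.49, 8.81 and 8.62 at 30 h. Arntl was at 9.37, 8.09 and 8.76 and then at 7.55, 8.86 and 9.04. The reason was not tested. Nr1d2, which encodes the repressor REV-ERB beta, went from 8.30, 8.50 and 8.88 to 7.87, 7.48 and 7.33. Its 36 h arrays all lay below its 12 h arrays, with means of 8.56 and 7.56, yet the difference, with an SE of 0.56, did not pass (adjusted p = 0.36). The related Nr1d1 had −0.26 ± 0.29, the activators Arntl 0.32 ± 0.29 and Clock −0.08 ± 0.19, and the repressors Per1 0.51 ± 0.29, Per3 −0.28 ± 0.37 and Cry2 −0.14 ± 0.22. Rora (0.11), Bhlhe40 (−0.20), Timeless (0.05) and the kinases Csnk1d (−0.26) and Csnk1e (0.03) did not pass either, and 3 other probe sets of Csnk1d had −0.16, 0.03 and 0.10. Per1 turned to −0.51 without the 12 h arrays of experiments 1 and 3 and had 0.04 without experiment 1, where its 12 h array was the low one. The signs of Bhlhe40, Timeless and Csnk1e, which had 0.12, −0.02 and −0.05 without experiment 3, also turned.

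Of 9 clock output genes 1 fell, Pnp, a purine nucleoside phosphorylase, at 10.91, 11.81 and 11.74 at 12 h and 10.60, 10.75 and 10.49 at 36 h. The groups did not overlap (−0.87 ± 0.21, adjusted p = 0.0217). Pnp had a mean of 12.93 at 0 h, at the end of the pulse, and of 11.49 at 12 h. Dbp, a direct target of the CLOCK and BMAL1 pair, was at 8.16, 7.25 and 7.79 and then at 8.11, 5.00 and 7.02. The value in experiment 2 fell to a dim level while that in experiment 1 hardly moved (−1.02 ± 0.64, adjusted p = 0.423). Tef had −0.43, Ppara −0.27, Usp2 −0.07, Noct −0.04, Nfil3 −0.04, Nampt 0.01 and Tspan4 0.09, and none passed. Other probe sets of Noct (0.51), Usp2 (0.38) and Nfil3 (0.09) had the opposite sign and did not pass either. Ppara, Noct, Nfil3 and Nampt turned sign under at least 1 of the alternatives that left arrays out.

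**Figure D4:**
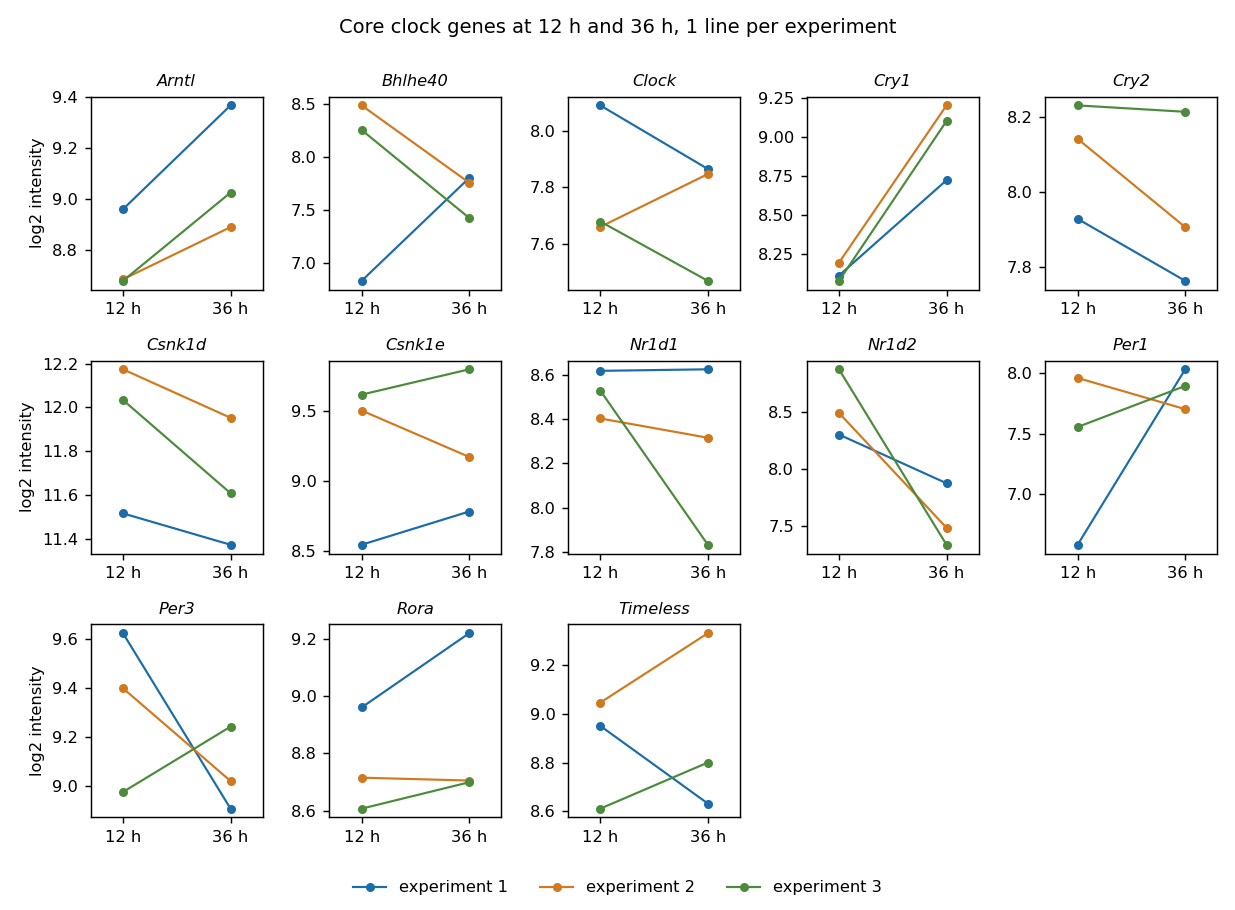
Log2 levels of the 13 measured core clock genes at 12 h and 36 h, 1 panel per gene on its own scale, with a line for each of the 3 experiments. Cry1, the 1 gene that passed, has 36 h arrays from 8.72 to 9.20 above 12 h arrays from 8.08 to 8.20.

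Of 17 endoplasmic reticulum chaperones and unfolded protein response genes 3 rose and 0 fell (1.33% and 2.09% of all genes), with a median of 0.21. Hspa5, the chaperone BiP, was at 12.08, 11.08 and 10.79 at 12 h and 12.20, 11.72 and 11.71 at 36 h. Experiment 1 was high at both times and moved least, and the groups overlapped (0.56 ± 0.12, adjusted p = 0.0106). Manf, a secreted stress protein, rose by 0.69 ± 0.15 and Xbp1, a transcription factor of the response, by 0.40 ± 0.11. Of 24 ATF4 and amino acid genes 1 rose, the amino acid transporter Slc7a5 (0.74 ± 0.12, adjusted p = 0.0031). Of 25 cytosolic chaperones 1 rose, Hspa4 (0.59 ± 0.16), which had 0.33 without experiment 3 and for which 3 dimmer probe sets had 0.02 to 0.16.

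Immediate early genes had a median of 0.32 over 21, of which 2 rose, Klf4 and the kinase Plk3 (0.35), and 0 fell. Of 16 cyclic AMP and CREB targets 0 rose and 2 fell, the neurotrophin Bdnf (−0.95 ± 0.25) and the small GTPase Gem (−0.89 ± 0.23). Bdnf had a mean of 9.64 at 0 h, at the end of the pulse, and of 8.39 at 12 h.

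In metabolism, Pfkm, the muscle-type phosphofructokinase of glycolysis, was at 11.08, 11.01 and 11.09 at 12 h and 10.29, 10.36 and 10.24 at 36 h. The groups were tight and far apart (−0.76 ± 0.11, adjusted p = 0.000913). In the same list of 23 glycolysis and hypoxia genes 2 rose, the glycolytic mutase Pgam1 (0.71, or 0.47 without experiment 2) and the oxygen sensor Egln1 (0.69 ± 0.13). Of 19 fatty acid and triglyceride synthesis genes 2 rose, the lipoprotein lipase Lpl (0.80) and the fatty acid synthase Fasn (0.79, or 0.41 without experiment 3). Of 19 fatty acid oxidation genes 1 fell, Ech1 (−0.38), and 15 had a negative sign, with a median of −0.31. Of 15 cholesterol genes 1 fell, the sterol isomerase Ebp (−0.73 ± 0.15), while 12 had a positive sign. The experiments disagreed, with list medians of −0.26, 0.38 and 0.51. Only 1 of the 15 was positive in every experiment, against 17.9% of all genes. Of 39 oxidative phosphorylation genes 1 fell, Sdha of complex II (−0.70).

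By limma with the block, 0 of 24 cytosolic ribosomal proteins, 0 of 35 ribosome biogenesis genes, 0 of 30 proteasome genes and 0 of 33 NRF2 and redox genes were called. Their medians were −0.01, 0.20, 0.11 and −0.13. The signs were positive for 28 of the 35 ribosome biogenesis genes and 22 of the 30 proteasome genes, beside 50.2% of all genes. The members with the smallest p were Rpl13a (−0.52, adjusted p = 0.112), Ppan (0.74, adjusted p = 0.0642), Psmc2 (0.31, adjusted p = 0.0995) and Tkt (−0.59, adjusted p = 0.0658).

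Genes of the extracellular matrix moved both ways. Of 49 measured 2 rose, Dpt and Fbln1, which encodes fibulin 1 (0.67 ± 0.12), and 5 fell, with a median of 0.07. Dimmer probe sets of Fbln1 had 0.41 and 0.30 and did not pass. The falls were Tgfbi, the laminin chains Lamb2 (−0.74) and Lama2 (−0.59), tenascin C, Tnc (−0.74), and the collagen crosslinking enzyme Lox (−0.55). Of 20 matrix proteases and inhibitors 1 rose, the protease Prss23 (0.77), and 3 fell, Mmp9, the secreted serpin Serpinf1 (−0.85) and the lysosomal protease Ctsl (−0.79). Another probe set of Serpinf1 had 0.17. Of 29 actin cytoskeleton and SRF target genes 2 fell, Csrp2 and Tagln, or transgelin (−0.86 ± 0.17), although 20 of the 29 had a positive sign.

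Of 36 lysosome and autophagy genes 4 fell and 0 rose (2.09% and 1.33% of all genes), with a median of −0.16. Npc2, the lysosomal cholesterol carrier, was at 12.77, 13.04 and 12.96 at 12 h and 12.49, 12.24 and 12.44 at 36 h. The groups did not overlap (−0.54 ± 0.10, adjusted p = 0.00537). Gabarapl1, an autophagosome protein, had −0.59, Ctsl −0.79 and the galactosidase Glb1 −0.49.

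Of 22 interferon response genes 3 fell, the class I histocompatibility genes H2-K1 (−0.75 ± 0.13) and H2-D1 (−0.70 ± 0.14) and the GTPase Gbp2 (−0.72 ± 0.16). These class I genes are near-identical, so their probe sets may share signal, and a dimmer probe set of H2-K1 had 0.62 and did not pass. Of 18 NF-kB and cytokine genes 1 rose, the adhesion molecule Vcam1 (0.43), for which dimmer probe sets had 0.26 and 0.51 and did not pass. Among growth factors and receptors, Igf2 (0.48), the angiotensin receptor Agtr2 (0.80) and the semaphorin and VEGF receptor Nrp1 (0.53) rose, and Tgfb3 (−0.69) and Fgfr2 fell, out of 33 IGF and TGF-beta genes and 20 FGF, PDGF and VEGF genes.

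**Figure D5:**
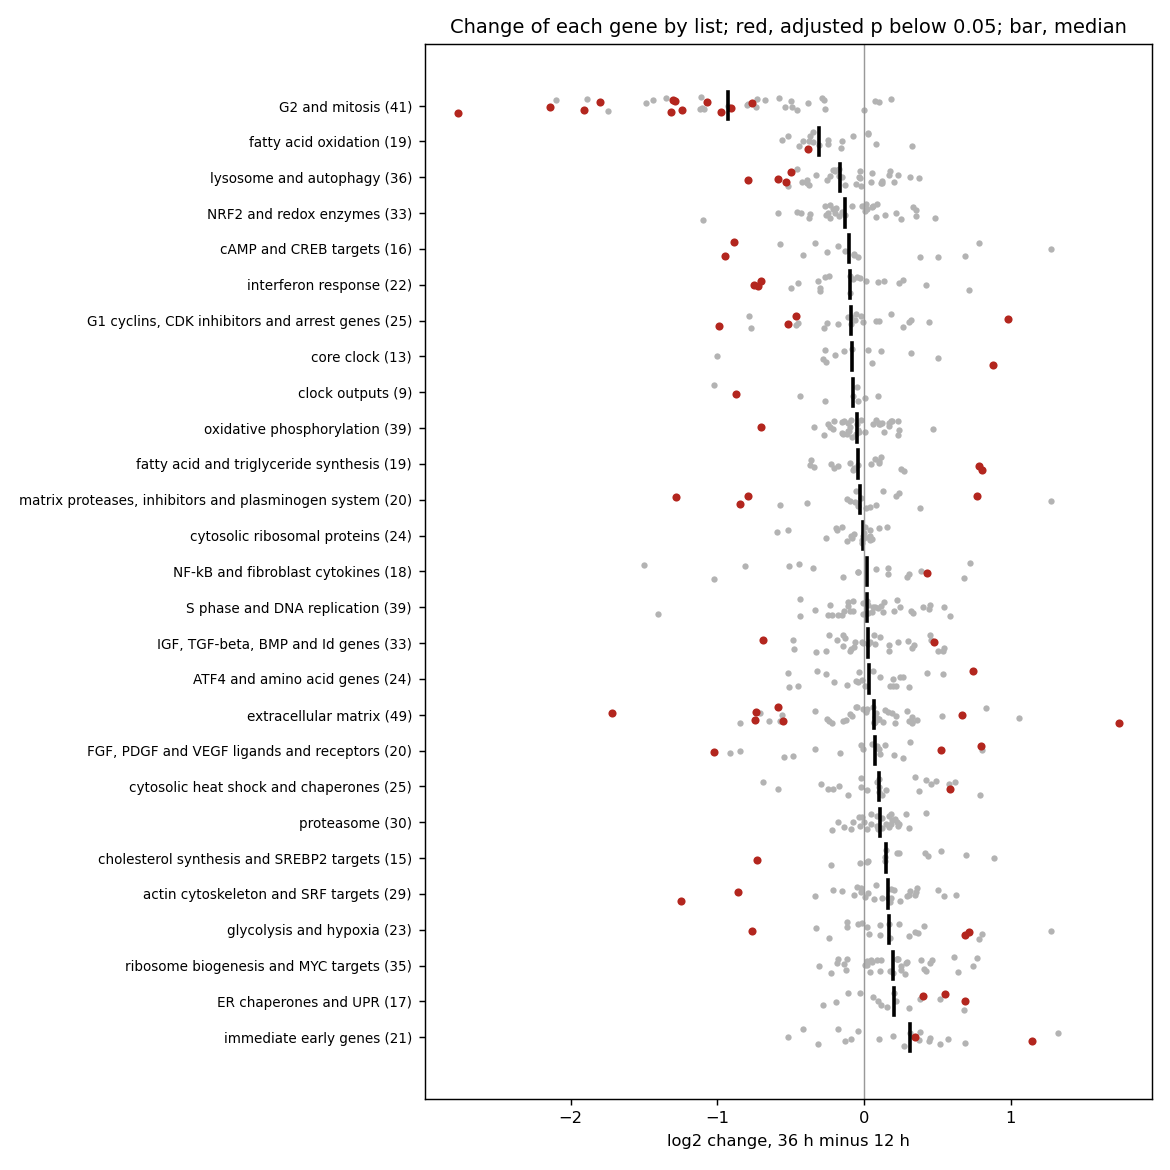
Change from 12 h to 36 h (log2) for the measured members of each gene list other than the cell type markers, 1 point per gene, with called members in red and a bar at the median of the list. The G2 and mitosis list has a median of −0.92, and the S phase list of 0.02.

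Among markers of cell types, Thy1, a surface protein of fibroblasts, rose by 0.55 ± 0.15 (adjusted p = 0.044), as 1 of 14 fibroblast markers. Of the other lists 1 call was made, Lpl, which is also an adipocyte marker and was already counted. None of 9 muscle, 5 leukocyte, 2 endothelial, 2 epithelial or 7 neuron and glia markers passed, and those with the smallest p were Myog (1.06, adjusted p = 0.0846), Cd68 (−0.52, adjusted p = 0.0773), Eng (−0.57, adjusted p = 0.0523), Cdh1 (−0.21, adjusted p = 0.519) and Eno2 (0.24, adjusted p = 0.541).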

How the data were processed

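Per the labels' protocols, total RNA of each NIH/3T3 flask was hybridised to its own Affymetrix mouse U74v2 array. The values the authors deposited are linear probe set intensities, scaled to a common trimmed mean on each array, by an algorithm not given in the sources used here. No detection calls entered, so dim values may be background, and precision is limited by the number of arrays. There were 12488 probe sets, including 66 controls.

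From these deposited intensities log2(intensity + 12.1) was computed, the pseudocount being the 10th percentile, and quantile normalized, since array medians spread over 0.25. Controls and probe sets with a mean under 6.77, the 40th percentile, were left out, which kept 7453. The platform annotation gave 1 symbol for 10855 probe sets and several for 396, and did not list 1193. The brightest probe set stood for each gene. Limma 3.58.1 in R 4.3.3 fitted the 9 time means of all 27 arrays with the experiment as a block and an intensity trend (16 residual degrees of freedom), and p-values were Benjamini-Hochberg adjusted over all probe sets kept.

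The experiments pair the samples by the data: deviations from the time means correlated between 12 h and 36 h with r of 0.474, 0.392 and 0.153 in experiments 1, 2 and 3, and over all pairs of times within an experiment with r from 0.135 to 0.642. The first principal component (28.7% of the variance) set experiment 1 apart.

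The comparison, the 34 gene lists and the naming rule were chosen with earlier results of these data known. Named were the 15 largest rises and falls with 1 sign in 3 experiments, up to 6 called members per list or the one with the smallest p, all called G2 and mitosis genes, and all measured clock genes. Lox, the remaining called matrix gene, was named outside this rule and was not followed over the alternatives. Alternatives changed the block, the arrays in the fit, the scaling, the pseudocount, the filter, the trend, array weights, and arrays or experiments left out. The code was tested on simulated data.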

Additional observations from a re-analysis of the deposited data

Results flagged for a closer look

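The median change of the 41 G2 and mitosis genes was negative from 12 h to 36 h and positive from 18 h to 42 h, in every experiment. The positive medians were small in experiments 1 and 3, and no member was called from 18 h to 42 h. From 12 h to 36 h it was −0.81, −0.54 and −1.25 in experiments 1, 2 and 3, with a mean of −0.87, and from 18 h to 42 h it was 0.02, 0.32 and 0.05, with a mean of 0.13. The difference of the means was −0.996 on the log2 scale, and this difference of the list medians was not tested. No other list showed opposite signs in every experiment between these comparisons.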

How the results depend on the processing

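The comparison of 36 h with 12 h gave 90 higher and 138 lower probe sets. Without the replicate block there were 1 and 13, and 0 G2 and mitosis genes fell, in place of 12. With only the arrays of the times compared there were 26 and 43. Centring arrays on their medians gave 50 higher and 175 lower, so that 77.8% of the calls were lower, in place of 60.5%. Without the 12 h arrays of experiments 1 and 3 there were 28 and 24, with 0 G2 and mitosis genes. Leaving out 1 experiment gave 1 to 157 higher, 3 to 254 lower and 1 to 8 G2 and mitosis genes, and 0 to 1 probe sets in each contrast of differences. Fewer arrays entered the fits that left arrays out, and other causes were not tested. The other settings tried, which were the scaling as deposited, both other pseudocounts, both other filters, no intensity trend, array weights and leaving out the 18 h and 30 h arrays of experiment 1, kept the counts of higher and lower probe sets and of falling G2 and mitosis genes within 1.5 times. Among the genes and lists followed over these settings, no called result changed its direction. Dim probe sets, with means near 6.77, limit what can be seen of Kif20a, Anln, Nmt2, Taf6 and Enkd1 at their lower time.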
